A study of Mus musculus with 12 samples.

Results

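The metalloproteinases and their tissue inhibitors are described here in NR-S1, a highly metastatic mouse squamous cell carcinoma. The members were every gene whose array name began with Mmp, Adam, Adamts or Timp followed by a digit: 70 genes (21 Mmp, 28 Adam, 17 Adamts and 4 Timp) on 123 probes, of 27670 genes or features on 41174 probes. Membership rests on the name, and the family itself was taken up with earlier results of these data known. NR-S1 was grown in the hind leg of male C3H/HeMsNrs mice, and its cells were collected by laser microdissection, in which a laser cuts chosen areas from a tissue section.

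In all 6 RNAs were compared. Lung metastases were taken 2 weeks after the leg tumour had reached 7.5 mm, from mice whose tumour had received 5 Gy of carbon ions, 8 Gy of gamma rays or no radiation. They are called the carbon, gamma and unirradiated metastasis after what that leg tumour received. Primary leg tumours were taken at 1 week, from other mice, after 5 Gy of carbon ions, after 8 Gy of gamma rays or without radiation. All carry the same transplanted tumour, which the labels call clone 1, so nothing here compares tumours of different origin. Metastases thus differ from primaries in site and in week as well, and these cannot be told apart. Each comparison used 2 arrays that hold the same 2 RNAs with the Cy3 and Cy5 dyes exchanged. Per the labels every RNA is replicate 1. The spread between the 2 arrays is therefore technical, no p-value is given, and mean ± SD (n = 2 arrays) describes the measurement only.

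Matrix metalloproteinases (MMPs) are zinc enzymes, secreted or anchored at the cell surface, that cut collagens, gelatin, proteoglycans and other matrix proteins. ADAMs are membrane-anchored relatives, several of which shed growth factors and receptors from the cell surface, and the secreted ADAMTS enzymes process procollagens and cut large proteoglycans. Tissue inhibitors of metalloproteinases (TIMPs) bind the active site of these enzymes. In carcinomas MMPs come from tumour cells, fibroblasts and infiltrating leukocytes alike.

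Mmp13, Mmp12, Mmp3, Mmp10 and Mmp8, which encode collagenases, an elastase and stromelysins, are the 5 measured members of a single run of MMP genes on chromosome 9. Their upstream letters are shown because neighbours within this run differed in opposite directions in the same metastases. The sequences are the 150 bases before each RefSeq transcript start (GRCm38.p6, plus strand), with the letters TGACTCA or TGAGTCA in capitals. These are the AP-1 site, the binding site of Fos and Jun proteins, read on either strand.
Mmp13, chr9:7272364-7272513: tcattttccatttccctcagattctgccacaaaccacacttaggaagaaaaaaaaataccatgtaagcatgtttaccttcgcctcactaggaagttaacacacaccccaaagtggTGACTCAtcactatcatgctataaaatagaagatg
Mmp12 first start, chr9:7344247-7344396: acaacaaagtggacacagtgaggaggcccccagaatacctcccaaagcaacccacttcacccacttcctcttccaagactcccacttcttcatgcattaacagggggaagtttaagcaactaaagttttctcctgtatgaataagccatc
Mmp12 second start, chr9:7347224-7347373: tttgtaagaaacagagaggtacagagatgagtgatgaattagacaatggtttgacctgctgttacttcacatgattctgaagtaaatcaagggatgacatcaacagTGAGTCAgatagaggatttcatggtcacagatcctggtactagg
Mmp3, chr9:7445672-7445821: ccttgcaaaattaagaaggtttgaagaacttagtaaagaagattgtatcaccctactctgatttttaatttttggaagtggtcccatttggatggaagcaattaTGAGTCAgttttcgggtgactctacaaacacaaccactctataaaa
Mmp10, chr9:7502192-7502341: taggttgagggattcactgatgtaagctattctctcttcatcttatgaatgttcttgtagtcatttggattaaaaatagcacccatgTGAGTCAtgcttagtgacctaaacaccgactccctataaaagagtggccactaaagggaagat
Mmp8, chr9:7558279-7558428: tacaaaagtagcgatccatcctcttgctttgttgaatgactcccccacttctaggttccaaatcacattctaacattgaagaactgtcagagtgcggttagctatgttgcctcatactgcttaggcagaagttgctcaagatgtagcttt
The capitals begin 35 bases before the start of Mmp13, 44 before the second start of Mmp12, 46 before that of Mmp3 and 63 before that of Mmp10, and the Mmp8 window holds none. Over the RefSeq windows (250 bases before to 50 after a start), the AP-1 letters were found in 9 of 46 promoters of 41 members (19.6%), against 1709 of 32851 promoters of all genes (5.2%). Of the 9 members with them, 6 lie in the chromosome 9 run (Mmp1a, Mmp3, Mmp7, Mmp10, Mmp12 and Mmp13) and 3 elsewhere (Adam1b, Adam19 and Adam29). Members beyond these 41, among them Mmp2, Mmp9, Adamts8, Adamts15 and Adamts16, had no window in this set and were not searched. GGAAGT, the core of a site for ETS factors, was found on either strand in 26.1% of member promoters and in 23.8% of all promoters. No member promoter had matches of these motifs that shared letters. A match is a string of letters and not a bound site.

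A member is called measured here if its brightest probe stood clear of background, by the scanner's flag, for either RNA on both arrays of the comparison. By this rule 47 members were measured somewhere and 23 nowhere, among them 14 Adam genes, 3 Adamts genes (Adamts6, Adamts13 and Adamts18) and 6 Mmp genes (Mmp1a, Mmp7, Mmp16, Mmp20, Mmp21 and Mmp24). On the 12 arrays 53.8% to 68.8% of non-control spots were well above background in each channel, and 16 to 58 of 43379 non-control spots per array were excluded as outliers. No member spot was saturated. A member was called where it was at least 2-fold higher, or at least 2-fold lower, with both dye arrangements. Where 2 array values are given for a gene, the first is the log2 ratio with the first-named RNA in Cy5 and the next is that with it in Cy3. Signals are normalised intensities that include an added 50, so a signal near 80 is close to background.

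Squamous markers were well above background in every RNA (14 of 14 keratinocyte markers, mean log2 signal 13.74 to 14.35), so squamous cells were present in each as labelled. Metastasis RNAs also held lung epithelial markers at a mean log2 signal of 13.20 to 14.34, against 7.54 to 7.79 in the irradiated primaries and 7.25 to 10.02 in the unirradiated primary. The last range is that of 1 RNA over 10 arrays, some of which also carried a metastasis RNA. All 11 markers were above background in it on some array, against 4 of 11 in each irradiated primary. Whether the RNA beside it affected this signal was not tested, so lung epithelium in the unirradiated primary is not shown. Of this list Cyp2f2 alone was called in the irradiated primaries relative to the unirradiated primary. It was higher, at a log2 ratio of 4.14 in the gamma and 4.54 in the carbon primary. Skeletal muscle markers were at 7.77 to 7.99 in the metastases, 10.20 to 10.32 in the carbon primary, 9.03 to 9.20 in the gamma primary and 11.33 to 11.45 in the unirradiated primary. The RNAs thus were not of tumour cells alone, and in such bulk RNA fewer cells of a type and less RNA per cell cannot be told apart. Both arrays of a comparison lay on 1 slide. The unirradiated and gamma metastases shared a slide and the carbon metastasis was on another, so carbon ions and slide cannot be told apart among the metastases, except in so far as each array also carries the unirradiated primary.

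**Figure D1:**
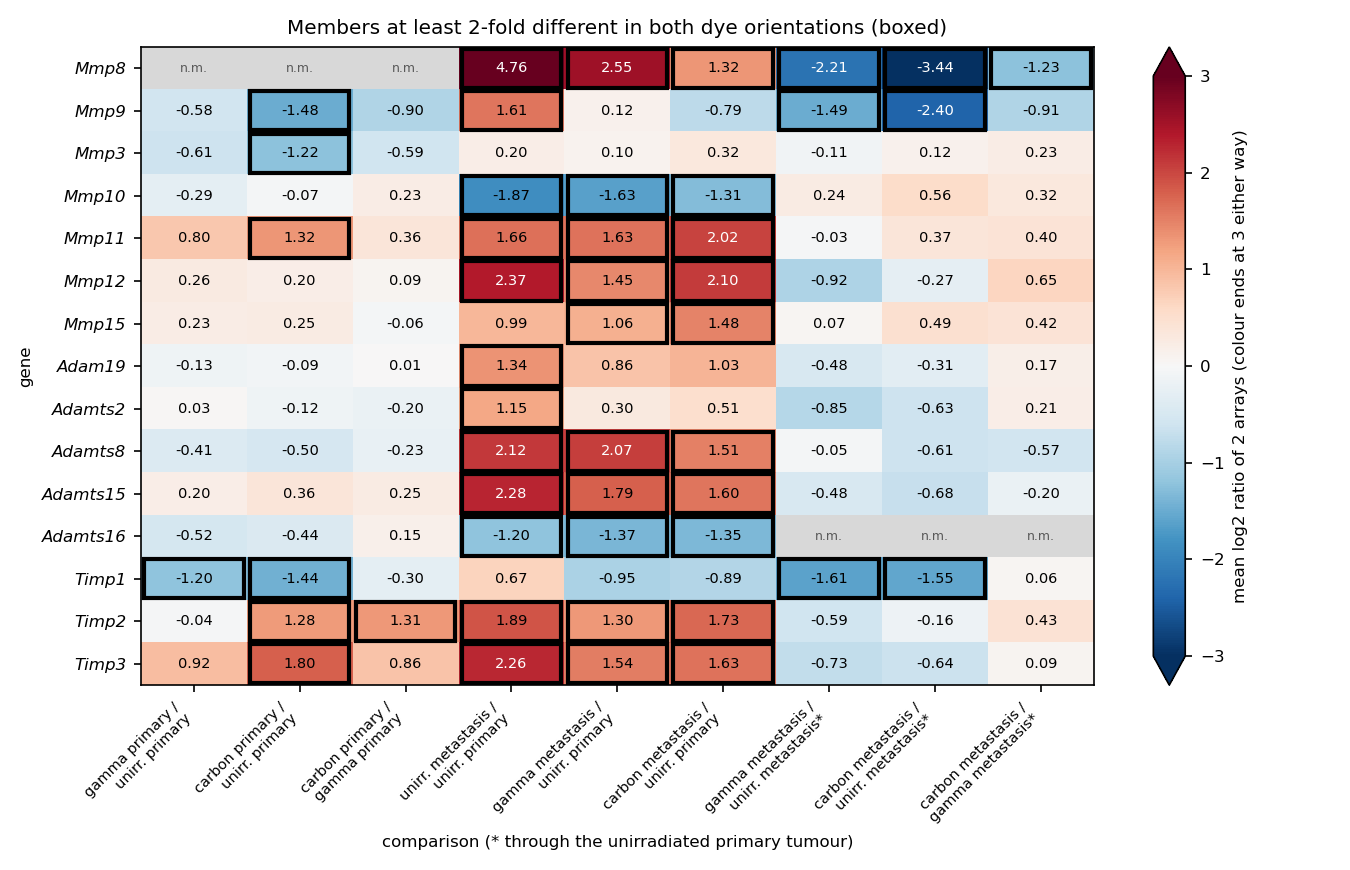
The 15 members called in any comparison (rows) over the 9 comparisons (columns, first-named RNA over second), with the mean log2 ratio of the 2 arrays as colour and number. Boxes mark calls in both dye arrangements and n.m. marks members that were not measured. Mmp8 reached 4.76 in the unirradiated metastasis, and Mmp10 and Adamts16 were below -1 in all 3 metastases.

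In the metastases the collagenase Mmp8, the elastase Mmp12, the stromelysin Mmp11, the proteoglycan-cutting Adamts8 and Adamts15 and the inhibitors Timp2 and Timp3 were higher, while the stromelysin Mmp10 and Adamts16 were lower. The unirradiated metastasis was set against the unirradiated primary to ask how tumour cells in the lung differ from those in the leg. There 46 members were measured, 10 were called higher (21.7%, against 10.4% of all 17103 genes measured) and 2 lower (4.35%, against 1.69%). The members' median log2 ratio was 0.54 and that of all genes was 0.05. In the gamma metastasis 8 of 45 were called higher (17.8%, against 8.82% of all genes) and 2 lower (4.44%, against 1.1%), with a median of 0.13 against 0.06. The carbon metastasis had 8 of 37 higher (21.6%, against 8.21% of all genes) and 2 lower (5.41%, against 1.03%), with a median of 0.27 against 0.06. These 3 comparisons share the unirradiated primary RNA, so calls can recur among them. The share of all genes called alike in all 3 is not given. Called higher in all 3 were 7 members (Mmp8, Mmp11, Mmp12, Adamts8, Adamts15, Timp2 and Timp3), and called lower in all 3 were Mmp10 and Adamts16. Of these, Mmp8, Mmp12 and Adamts15 lost no call under another setting, and the calls that the others lost are given with each gene.

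Mmp8, the collagenase stored in neutrophil granules, had the highest ratio of any member in the unirradiated metastasis. Its signal was 183 and 205 in the carbon metastasis, 423 and 507 in the gamma metastasis and 2466 and 2768 in the unirradiated metastasis. In the carbon primary it was 69 to 79 and in the gamma primary 75 to 84, not well above background on any array. The unirradiated primary gave 68 to 103 and was above background on 4 of 10 arrays. These 4 also carried the unirradiated or the gamma metastasis. Whether the RNA beside it affected the signal of the primary was not tested. The signal ranges of the metastases, each over 2 arrays of the same RNA, thus did not overlap with those of the primaries, nor with each other. The share of all genes with ranges apart in this way is not given, here or for Timp1, Timp2 and Timp3 below. Relative to the unirradiated primary the log2 ratio was 4.76 ± 0.02 in the unirradiated metastasis (27.1-fold, arrays 4.75 and 4.78) and 2.55 ± 0.11 in the gamma metastasis. Over 10 alternative settings these means ran from 4.45 to 6.07 and from 2.14 to 4.27, the primary being close to background. In the carbon metastasis the log2 ratio was 1.32 ± 0.10, where the primary was not well above background on either array and the bound is at least 2.38-fold higher.

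Mmp9, gelatinase B, which cuts denatured collagen and basement-membrane collagen, had the same order among the metastases. It was at 240 and 259 in the carbon metastasis, 459 and 531 in the gamma metastasis and 1312 and 1448 in the unirradiated metastasis. The carbon primary was at 157 to 166, the gamma primary at 277 to 326 and the unirradiated primary at 397 to 494. Only the unirradiated metastasis was called above the unirradiated primary (1.61 ± 0.23, arrays 1.78 and 1.45). With median centring in place of intensity-dependent normalisation this call was lost (mean 1.53). In the gamma metastasis the log2 ratio was 0.12 ± 0.23 and in the carbon metastasis -0.79 ± 0.24.

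Most neutrophil markers moved with both genes. Of 10 neutrophil markers measured, 9 were called higher in the unirradiated metastasis (median log2 ratio 3.50), 8 in the gamma metastasis (1.93) and 2 in the carbon metastasis (0.42). The mean log2 signal of the list was 9.67 to 9.71 in the carbon metastasis, 10.76 to 10.85 in the gamma metastasis and 11.99 to 12.16 in the unirradiated metastasis. It was 8.40 to 8.53 in the carbon primary, 9.0 to 9.04 in the gamma primary and 8.78 to 9.12 in the unirradiated primary. S100a8, a calcium-binding protein abundant in neutrophils, was at 0.28 in the carbon metastasis, 3.47 in the gamma metastasis and 5.70 in the unirradiated metastasis. Ltf, lactoferrin, ran the other way, at 3.28 in the carbon, 2.46 in the gamma and 1.21 in the unirradiated metastasis. Lcn2 was called in all 3 (3.23 carbon, 3.11 gamma and 3.75 unirradiated) and Mpo in none (0.11 carbon, 0.44 gamma and 0.29 unirradiated), and Elane, a neutrophil elastase gene, was above background in no RNA. The part of neutrophils in the Mmp8 and Mmp9 values was not tested. Mmp25, a membrane-type MMP known from leukocytes and named after its values were seen, stood at 1.24 and 0.92 in the unirradiated metastasis and was not called.

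**Figure D2:**
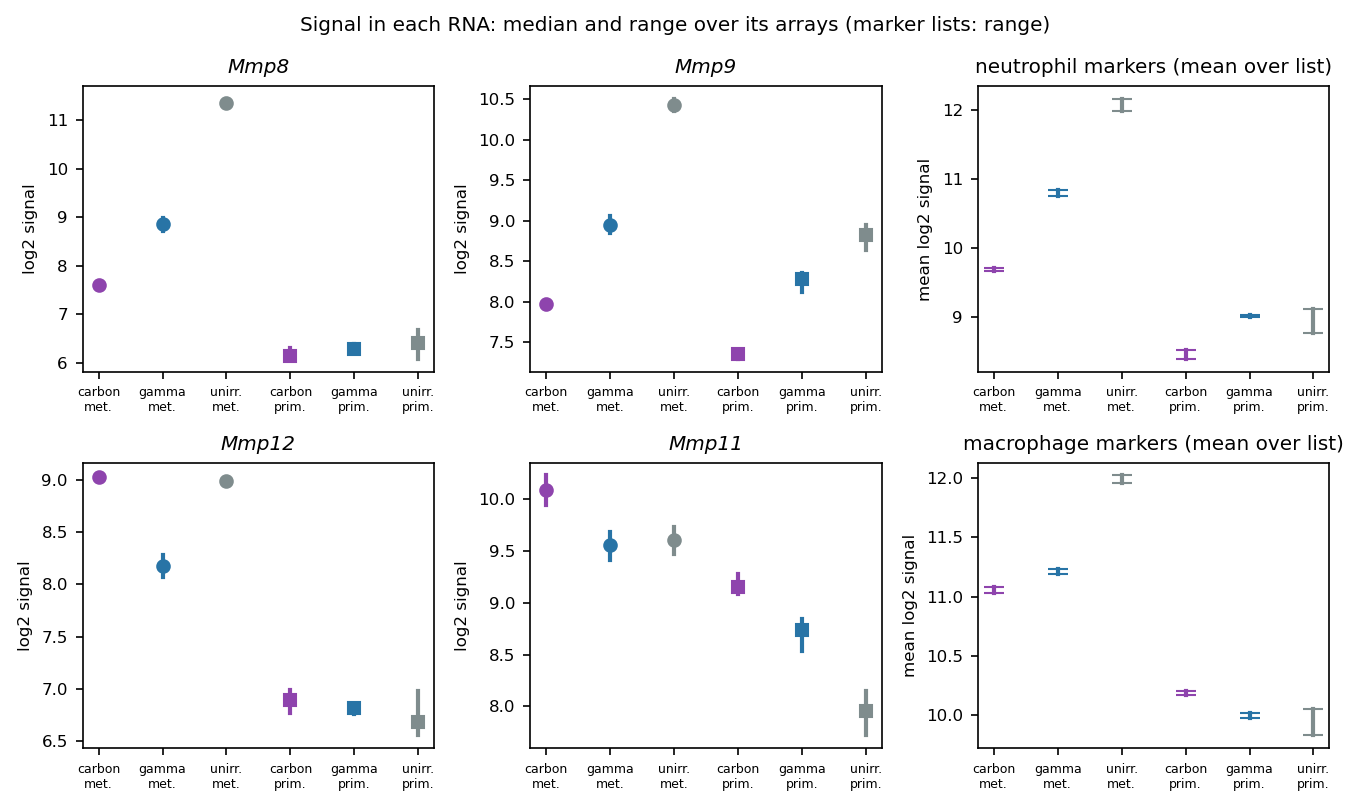
Normalised log2 signal of Mmp8, Mmp9, Mmp12 and Mmp11 in each of the 6 RNAs (points are medians over the arrays that carry the RNA, bars the lowest to highest), beside the mean log2 signal of the neutrophil and macrophage marker lists (bars, lowest to highest array). Mmp8, Mmp9 and the neutrophil list share the order carbon, gamma, unirradiated among the metastases (neutrophil list 9.67 to 12.16), and Mmp11 is highest in the carbon metastasis.

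Mmp12, the macrophage metalloelastase, was higher in every metastasis. It was at 517 and 527 in the carbon metastasis, 269 and 312 in the gamma metastasis and 505 and 511 in the unirradiated metastasis, against 94 to 126 in the unirradiated primary. The log2 ratio was 2.37 ± 0.10 in the unirradiated, 1.45 ± 0.10 in the gamma and 2.10 ± 0.09 in the carbon metastasis. Between the carbon and the unirradiated metastasis it was -0.27 ± 0.02. Macrophage markers were called higher for 13 of 14 genes in the unirradiated metastasis (median 1.77), 5 in the gamma metastasis (0.84) and 4 in the carbon metastasis (0.80). The mean log2 signal of the list was 11.03 to 11.08 in the carbon, 11.19 to 11.23 in the gamma and 11.96 to 12.02 in the unirradiated metastasis, against 9.83 to 10.05 in the unirradiated primary. Their part in the Mmp12 values was not tested.

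The stromelysins, of which Mmp3 and Mmp10 cut proteoglycans and other matrix proteins and can activate other MMPs, differed in opposite directions. Mmp11, stromelysin-3, is a secreted MMP often found in the stroma of carcinomas. Its signal was 983 and 1200 in the carbon metastasis, 684 and 822 in the gamma metastasis and 710 and 849 in the unirradiated metastasis, against 211 to 283 in the unirradiated primary. The log2 ratio was 1.66 ± 0.31 in the unirradiated, 1.63 ± 0.27 in the gamma and 2.02 ± 0.32 in the carbon metastasis, and the gamma call was lost with median centring (mean 1.51). Mmp10, stromelysin-2, was at 219 and 239 in the carbon metastasis, 181 and 182 in the gamma metastasis and 140 and 152 in the unirradiated metastasis, against 501 to 647 in the unirradiated primary. It was lower by log2 ratios of -1.87 ± 0.04 (unirradiated), -1.63 ± 0.17 (gamma) and -1.31 ± 0.28 (carbon). The carbon call was lost with median centring (mean -1.39) and with scaling between arrays (mean -1.13). Mmp3, stromelysin-1, was at 0.20 (unirradiated), 0.10 (gamma) and 0.32 (carbon) and not called.

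Along chromosome 9 the run holds 10 MMP genes with no other protein-coding gene between them, of which 8 were members and 5 were measured. In the unirradiated metastasis these were, in chromosomal order, Mmp13 (-0.83), Mmp12 (2.37), Mmp3 (0.20), Mmp10 (-1.87) and Mmp8 (4.76). Mmp13, the main interstitial collagenase of the mouse, was below the unirradiated primary on every array of the metastases without being called, at -0.69 and -0.96 in the unirradiated, -0.93 and -1.13 in the gamma and -0.71 and -0.88 in the carbon metastasis. Of the 4 measured genes with the capital letters shown above, 1 was called higher in that metastasis and 1 lower.

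**Figure D3:**
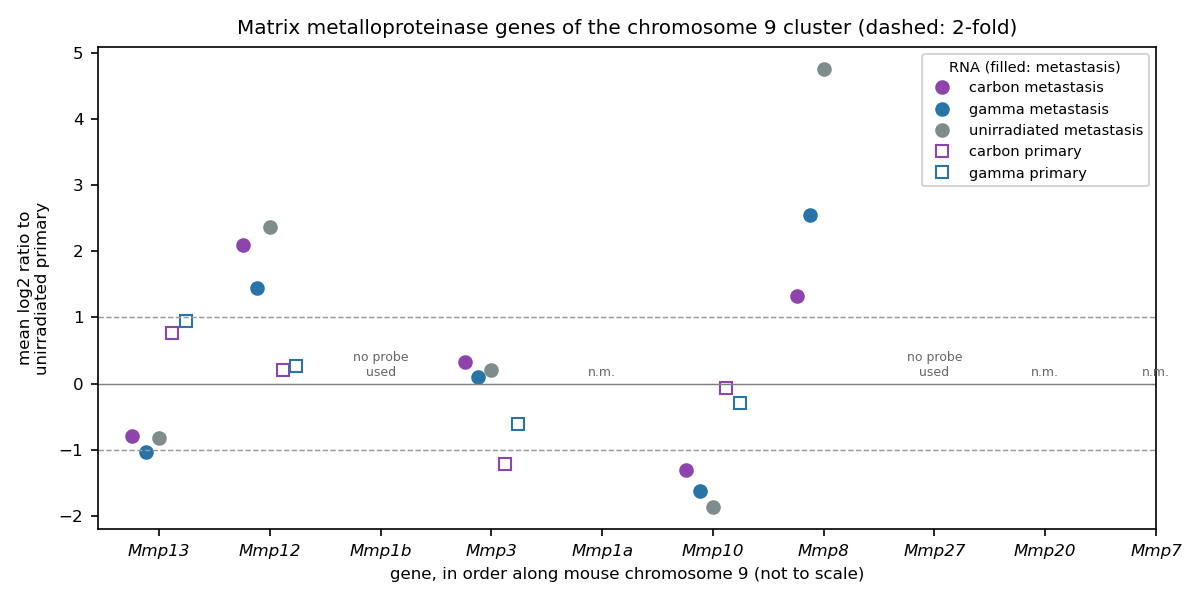
Mean log2 ratio to the unirradiated primary for the MMP genes of chromosome 9 in their order along the chromosome (horizontal axis, not to scale), filled circles for metastases and open squares for irradiated primaries. Mmp12 and Mmp8 lie above 1 and Mmp10 below -1 in all 3 metastases, and Mmp13 is above 0 in both irradiated primaries (0.94 and 0.76) and below 0 in the metastases.

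Among membrane-type MMPs, Mmp15 was called higher in the carbon metastasis (1.48 ± 0.01) and the gamma metastasis (1.06 ± 0.07). The unirradiated metastasis was just short, at 1.08 and 0.90. The gamma call was lost with median centring and with scaling between arrays (lowest mean 0.89). Mmp14, the membrane-type enzyme that activates the gelatinase Mmp2, was bright in every RNA (signal 12393 to 21476) and lay between 0.24 and 0.54 in the metastases. Mmp2 itself was at 0.14 ± 0.13 in the unirradiated, -0.70 ± 0.06 in the gamma and -0.57 ± 0.09 in the carbon metastasis, all uncalled.

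Adamts15 and Adamts8, which cut large proteoglycans, were higher in all metastases. Adamts15 had a signal of 235 and 293 in the carbon metastasis, 299 and 318 in the gamma metastasis and 399 and 431 in the unirradiated metastasis. In the unirradiated primary it was 75 to 95 and above background on 3 of 10 arrays, all of which also carried the unirradiated or the gamma metastasis. Its log2 ratio was 2.28 ± 0.04 in the unirradiated and 1.79 ± 0.20 in the gamma metastasis, where the primary was above background on 1 of the 2 arrays and the mean ran from 1.51 to 3.26 over 9 alternative settings. In the carbon metastasis, with the primary above background on neither array, it was at least 3.03-fold higher. Adamts8 was at 337 and 394 (carbon), 507 and 622 (gamma) and 525 and 642 (unirradiated metastasis), against 126 to 152 in the unirradiated primary. Its log2 ratio was 2.12 ± 0.21, 2.07 ± 0.16 and 1.51 ± 0.20 in the unirradiated, gamma and carbon metastases. Another Adamts8 probe gave smaller ratios of 1.10 (unirradiated), 0.93 (gamma) and 0.70 (carbon). Averaging all Adamts8 probes ended the call in the unirradiated metastasis (mean 1.09) and in the carbon metastasis (mean 0.76).

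Lung epithelial and endothelial markers were also higher in the metastases. Of 10 endothelial markers 9 were called higher in the unirradiated metastasis (median 2.07), 5 in the gamma metastasis (1.32) and 5 in the carbon metastasis (1.36). Of 11 lung epithelial markers 10 were called in each, with medians of 4.11, 4.92 and 4.73. Their part in the values of Adamts8, Adamts15 and the other members was not tested.

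Adamts16 was lower in all 3 metastases, where it was not well above background on any array. Its signal was 55 and 67 in the carbon metastasis, 58 and 68 in the gamma metastasis and 64 and 75 in the unirradiated metastasis, against 142 to 184 in the unirradiated primary. The bounds were at least 2.16-fold lower (carbon), 2.54-fold (gamma) and 2.29-fold (unirradiated). Averaging all Adamts16 probes ended these calls (means -0.73 in the carbon, -0.76 in the gamma and -0.70 in the unirradiated metastasis).

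Adamts2, the enzyme that removes the amino-terminal propeptide of fibrillar procollagens, was called higher in the unirradiated metastasis (1.15 ± 0.05). It was at 0.30 ± 0.02 in the gamma and 0.51 ± 0.03 in the carbon metastasis. Its other probes gave 1.24, 0.31 and 0.21 in the unirradiated metastasis, and the call was lost with their average and with 2 other normalisations (lowest mean 0.73). Of 12 fibroblast markers 6 were called higher in the unirradiated metastasis (median 0.96), 3 in the gamma metastasis (0.09) and 2 in the carbon metastasis (0.35), and their part in the Adamts2 values was not tested. Adamts1, a versican-cutting enzyme, was at 0.60 ± 0.24, -0.17 ± 0.18 and 0.29 ± 0.24 in the unirradiated, gamma and carbon metastases. Adamts4 and Adamts5, the aggrecanases of cartilage, lay between -0.39 and 0.11.

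Of the 9 sheddase ADAMs 1 was called higher in the unirradiated metastasis, near the 10.4% of all genes. None of them was called in the gamma metastasis (9 measured, against 8.82% of all genes) or the carbon metastasis (7 measured, against 8.21%). Their median log2 ratio was 0.56 in the unirradiated, 0.13 in the gamma and 0.27 in the carbon metastasis, where all genes had 0.05, 0.06 and 0.06. The called gene was Adam19, at 1.34 ± 0.01 in the unirradiated metastasis (signal 469 and 494, against 174 to 254 in the unirradiated primary). It was at 0.86 ± 0.02 in the gamma and 1.03 ± 0.05 in the carbon metastasis, where 1 array was just under 2-fold. The Adam19 call was lost with median centring and with the mean of all probes (lowest mean 0.92). Adam8, a leukocyte-expressed ADAM, was next, at 0.93 and 1.28 in the unirradiated metastasis and at a mean of 0.56 in both the gamma and the carbon metastasis. Adam9 stood at 0.81 ± 0.04 (unirradiated), 0.08 ± 0.05 (gamma) and 0.27 ± 0.11 (carbon). Adam17, the main sheddase of TNF and of several EGF-receptor ligands, had widely spaced arrays, such as -0.25 and 0.76 in the carbon metastasis, and its mean was between 0.25 and 0.65. Adam10, which cuts Notch and cadherins, lay between 0.00 and 0.28, and Adam15 between 0.31 and 0.56. Another Adam15 probe had the opposite sign, at -0.07 in the unirradiated, -0.33 in the gamma and -0.30 in the carbon metastasis. Adam12, Adam28 and Adam33 were dim (signal up to 153 in any RNA) and, where measured, lay between -0.35 and 0.18.

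The inhibitors did not move together. Timp2 and Timp3 were called higher in all 3 metastases. Timp1, the inhibitor induced by many growth factors and cytokines, was at 0.67 ± 0.05 in the unirradiated, -0.95 ± 0.02 in the gamma and -0.89 ± 0.02 in the carbon metastasis, with no call on its brightest probe. Its other 2 probes gave 0.28 each in the unirradiated metastasis, -1.33 and -1.05 in the gamma and -1.23 and -1.05 in the carbon metastasis. With the mean of all probes Timp1 was called lower in the gamma (mean -1.11) and the carbon metastasis (mean -1.06). Timp2, which also takes part in the activation of Mmp2 by Mmp14, had a signal of 9683 and 10115 in the carbon metastasis, 6277 and 7700 in the gamma metastasis and 10974 and 11267 in the unirradiated metastasis, against 2756 to 3136 in the unirradiated primary. Its log2 ratio was 1.89 ± 0.03 in the unirradiated, 1.30 ± 0.16 in the gamma and 1.73 ± 0.06 in the carbon metastasis. Timp3, which binds the matrix and also inhibits Adam17, was at 16419 and 24062 in the carbon metastasis, 18265 and 22015 in the gamma metastasis and 28505 and 33632 in the unirradiated metastasis, against 5506 to 8035 in the unirradiated primary. The ranges do not overlap for either gene. The Timp3 log2 ratio was 2.26 ± 0.46, 1.54 ± 0.50 and 1.63 ± 0.71 in the unirradiated, gamma and carbon metastases, and the array with the first-named RNA in Cy3 was the higher in all 6 direct comparisons. Median centring ended the Timp2 and Timp3 calls in the gamma metastasis (means 0.93 and 1.10) and in the carbon metastasis (means 1.41 and 1.25). Scaling between arrays ended both in the gamma metastasis (means 1.09 and 1.29) and that of Timp3 in the carbon metastasis (mean 1.41). Timp4 was near background and never called.

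**Figure D4:**
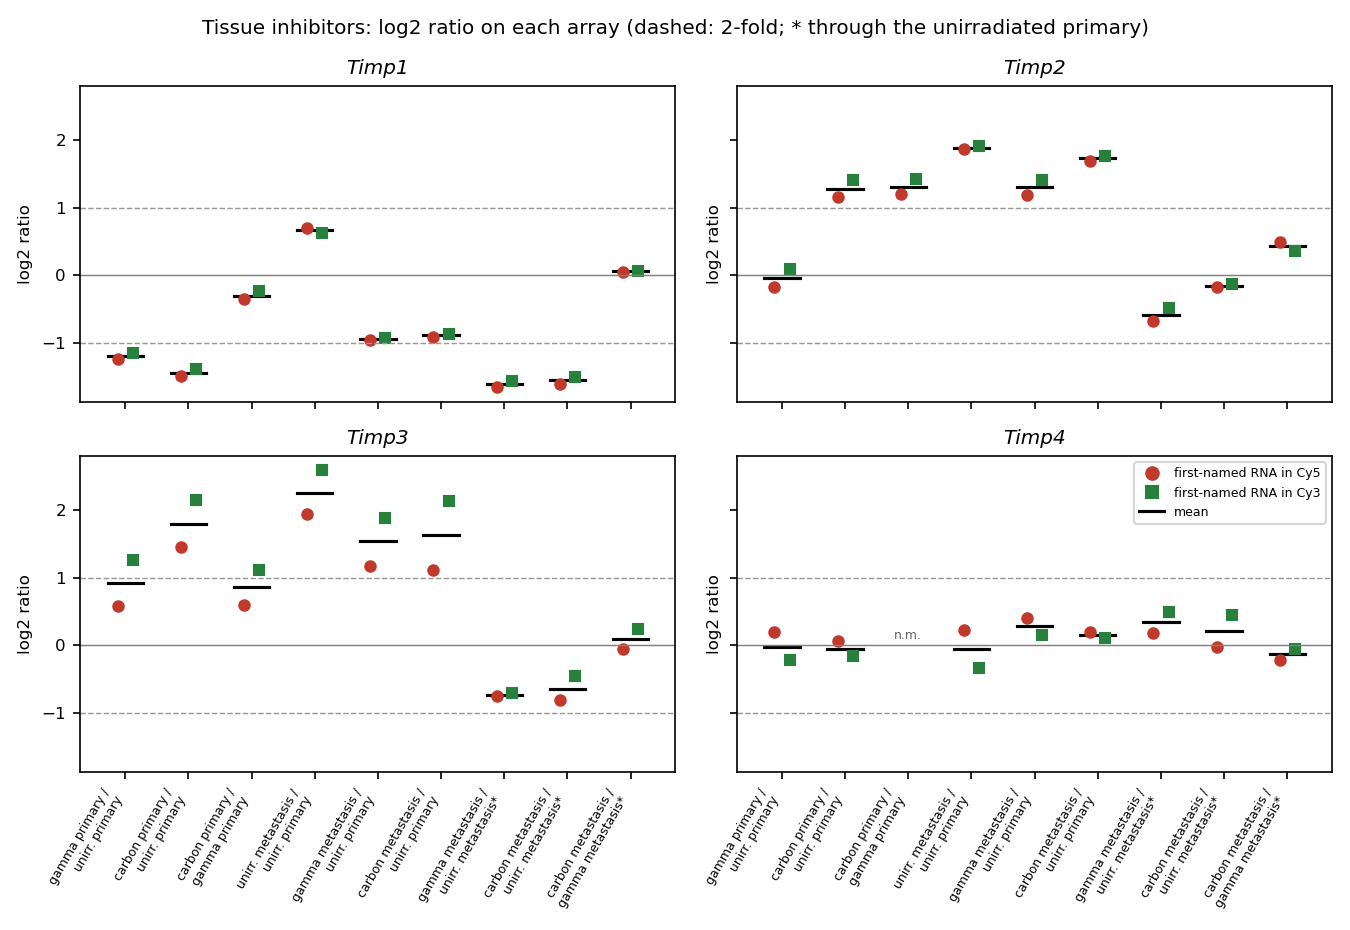
Log2 ratio of the 4 tissue inhibitors in the 9 comparisons (horizontal axis), red circles with the first-named RNA in Cy5, green squares with it in Cy3, bars for the mean, and dashed lines at 2-fold. In comparisons marked with an asterisk each point is the difference of 2 arrays of the same dye arrangement. Timp1 lies below -1 in both irradiated primaries and, among metastases, in the carbon and gamma ones relative to the unirradiated one.

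In the primary tumours, irradiation was compared with none to ask what remained of the response 1 week later. After gamma rays 1 of 40 measured members was called, Timp1, and it was lower (2.5%, against 1.25% of all genes), while none was higher (against 2.23% of all genes). After carbon ions 3 of 39 were called higher, Timp3, Mmp11 and Timp2 (7.69%, against 3.9% of all genes), and 3 lower, Mmp9, Timp1 and Mmp3 (7.69%, against 1.07%). The medians were -0.03 after gamma rays and -0.01 after carbon ions, against 0.02 over all genes in each. Both comparisons share the unirradiated primary.

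Timp1 was lower after both kinds of radiation. Its signal was 12385 to 13290 in the carbon primary and 14762 to 15798 in the gamma primary, against 30153 to 37354 in the unirradiated primary, with no overlap. The log2 ratio was -1.44 ± 0.07 after carbon ions (arrays -1.49 and -1.39) and -1.20 ± 0.07 after gamma rays (arrays -1.24 and -1.15). Its other 2 probes gave -1.46 and -1.21 after carbon ions and -1.22 and -1.04 after gamma rays. Median centring kept the means (-1.53 after carbon ions and -1.27 after gamma rays) but 1 array of each then fell short of 2-fold.

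Timp3 was called higher after carbon ions (1.80 ± 0.50, arrays 1.45 and 2.15), at 20103 to 25662 in the carbon primary and 11521 to 14066 in the gamma primary, against 5506 to 8035 in the unirradiated primary. After gamma rays it was at 0.58 and 1.26 and was not called. Timp2 was at 6761 to 7821 in the carbon primary and 2790 to 3028 in the gamma primary, against 2756 to 3136 in the unirradiated primary. Its log2 ratio was 1.28 ± 0.17 after carbon ions and -0.04 ± 0.19 after gamma rays, so the gamma and unirradiated primaries overlapped and the carbon primary lay above both. Mmp11 was at 1.32 ± 0.33 after carbon ions (signal 544 to 619) and at 0.80 ± 0.31 after gamma rays (signal 370 to 460). The Timp2 and Mmp11 calls after carbon ions were lost with median centring (means 1.25 and 1.40).

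Mmp9 was lower after carbon ions (-1.48 ± 0.13) and stood at -0.58 ± 0.23 after gamma rays, and another Mmp9 probe gave -1.28 after carbon ions and -0.57 after gamma rays. Mmp3 was at 233 to 253 in the carbon primary and 326 to 387 in the gamma primary, against 519 to 607 in the unirradiated primary, or -1.22 ± 0.20 after carbon ions and -0.61 ± 0.22 after gamma rays. Median centring ended the Mmp3 call (mean -1.14). Neutrophil markers were at a median of -1.12 after carbon ions, with 3 of 8 measured called lower (S100a8, S100a9 and Csf3r) and Ltf higher, and at -0.03 after gamma rays with 1 called, again Ltf. Their part in the Mmp9 value was not tested.

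Mmp13 was higher without a call after both treatments, at 0.84 and 0.68 after carbon ions and 0.97 and 0.92 after gamma rays. Its signal was 1065 to 1139 in the carbon primary and 1222 to 1300 in the gamma primary, against 613 to 695 in the unirradiated primary. Adamts1 was at -0.68 ± 0.20 after carbon ions and -0.91 ± 0.33 after gamma rays, and Adam8 at -0.73 ± 0.21 after carbon ions and -0.46 ± 0.23 after gamma rays. Mmp2 was at 0.55 ± 0.14 after carbon ions and -0.17 ± 0.12 after gamma rays. Adam9, Adam10, Adam12, Adam15, Adam17, Adam19, Adam28, Adam33, Mmp10, Mmp12, Mmp14 and Mmp15 lay between -0.29 and 0.42 after either treatment where they were measured. The ADAMTS genes Adamts2, Adamts4, Adamts5, Adamts8, Adamts15 and Adamts16 lay between -0.52 and 0.36.

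The carbon primary was also hybridised directly against the gamma primary. Of 39 measured members 1 was called, Timp2, which was higher (2.56%, against 0.884% of all genes), at 1.31 ± 0.15 (arrays 1.20 and 1.42). None was called lower, where 0.16% of all genes were. Median centring ended the Timp2 call too (mean 1.28). Skeletal muscle markers were higher on the same arrays, with 10 of 14 called and a median of 1.28. Their mean log2 signal was 10.20 to 10.32 in the carbon, 9.03 to 9.20 in the gamma and 11.33 to 11.45 in the unirradiated primary. Timp2 was at 6761 to 7821, 2790 to 3028 and 2756 to 3136 in the same order. In the metastases muscle markers were at 7.77 to 7.99 and Timp2 at 6277 to 11267. The part of muscle in the Timp2 value was not tested. After Timp2, Mmp9 came next at -0.90 ± 0.12, then Timp3 at 0.86 ± 0.37 and Mmp2 at 0.69 ± 0.09, none of them called. Scaling between arrays gave Mmp9 a call (mean -1.14). The direct ratio and the difference of the 2 ratios to the unirradiated primary lay a median of 0.04 apart over 37 members, and at most 0.21 (Mmp28).

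Irradiated and unirradiated metastases were compared through the unirradiated primary, by subtracting log2 ratios of arrays with the same dye arrangement. Effects of dye cancel in this difference, so its smaller SD is no sign of greater precision. In the gamma metastasis 3 of 42 members were called lower than in the unirradiated metastasis (7.14%, against 1.4% of all genes) and none higher (against 1.84%). In the carbon metastasis 3 of 40 were lower (7.5%, against 2.37% of all genes) and none higher (against 1.85%). The same genes were called in both, Mmp8, Mmp9 and Timp1. These comparisons share the unirradiated metastasis, and the share of all genes called in both is not given. The medians were -0.26 (gamma) and -0.28 (carbon), against -0.03 over all genes in each.

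Mmp8 was lower by a log2 ratio of -3.44 ± 0.09 in the carbon metastasis (10.9-fold) and of -2.21 ± 0.09 in the gamma metastasis (4.63-fold). Mmp9 was at -2.40 ± 0.01 in the carbon and -1.49 ± 0.00 in the gamma metastasis. Timp1, with a signal of 18001 and 19140 in the carbon metastasis and 17524 and 18012 in the gamma metastasis, against 49047 and 50901 in the unirradiated metastasis, was at -1.55 ± 0.08 in the carbon and -1.61 ± 0.07 in the gamma metastasis. These 6 calls were kept with offset 0, the scanner's ratios, the authors' table, median centring, scaling between arrays and the mean of all probes. Neutrophil markers had medians of -3.02 (7 of 10 lower, Ltf higher) in the carbon and -1.71 (6 of 10 lower, Ltf higher) in the gamma metastasis. Macrophage markers had medians of -0.96 (5 of 14 lower) in the carbon and -0.97 (6 of 14 lower) in the gamma metastasis. Some fibroblast markers were called lower too, Pdgfra, Lum and Col6a1 in the carbon and Pdgfra, Col6a1 and Fn1 in the gamma metastasis. Among endothelial markers Tek and Vwf were called lower in the carbon metastasis. The other fibroblast and endothelial markers were not called. The part of these cell types in the Mmp8, Mmp9 and Timp1 values was not tested.

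Between the carbon and gamma metastases 1 of 41 members was called lower (2.44%, against 1.07% of all genes) and none higher (against 0.239%). Mmp8 was lower in the carbon than in the gamma metastasis, at -1.23 on both arrays, a call that was lost with the scanner's own log ratios (lowest mean over all settings -1.42, highest -1.01). Mmp9 was at -0.91 ± 0.01, Mmp12 at 0.65 ± 0.18 and Timp1 at 0.06 ± 0.00, with no call.

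The other 39 members, which the rule for naming genes does not cover, added no call. Of these, 17 were measured somewhere, and the ends of their range of mean log2 ratios were -0.97 (Adamts12) and 1.08 (Mmp25).

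Beyond the members, the ligands that ADAM sheddases release are a list of 8 EGF-family genes, all of them measured. In the gamma primary 4 were called lower (Nrg1, Epgn, Areg and Hbegf, list median -0.96), against 1.25% of all genes. In the carbon primary 3 were lower (Epgn, Nrg1 and Areg, list median -0.91), against 1.07% of all genes. None was higher in either, where 2.23% of all genes were after gamma rays and 3.9% after carbon ions. Areg, amphiregulin, was at -1.69 and -1.49 after carbon ions and at -1.82 and -1.40 after gamma rays. Epgn, epigen, was at -2.04 ± 0.01 after carbon ions and -1.78 ± 0.04 after gamma rays, and Nrg1, neuregulin, at -1.65 ± 0.03 after carbon ions and -1.86 ± 0.01 after gamma rays. Adam17 and Adam10 were not called in these RNAs. Relative to the unirradiated primary, Nrg1 was called lower in the unirradiated (-1.13 ± 0.03, against 1.69% of all genes) and gamma metastasis (-1.70 ± 0.09, against 1.1%). No ligand was called in the carbon metastasis relative to that primary. Relative to the unirradiated metastasis, Epgn alone was called lower in the carbon metastasis, against 2.37% of all genes, and no ligand was called in the gamma metastasis.

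**Figure D5:**
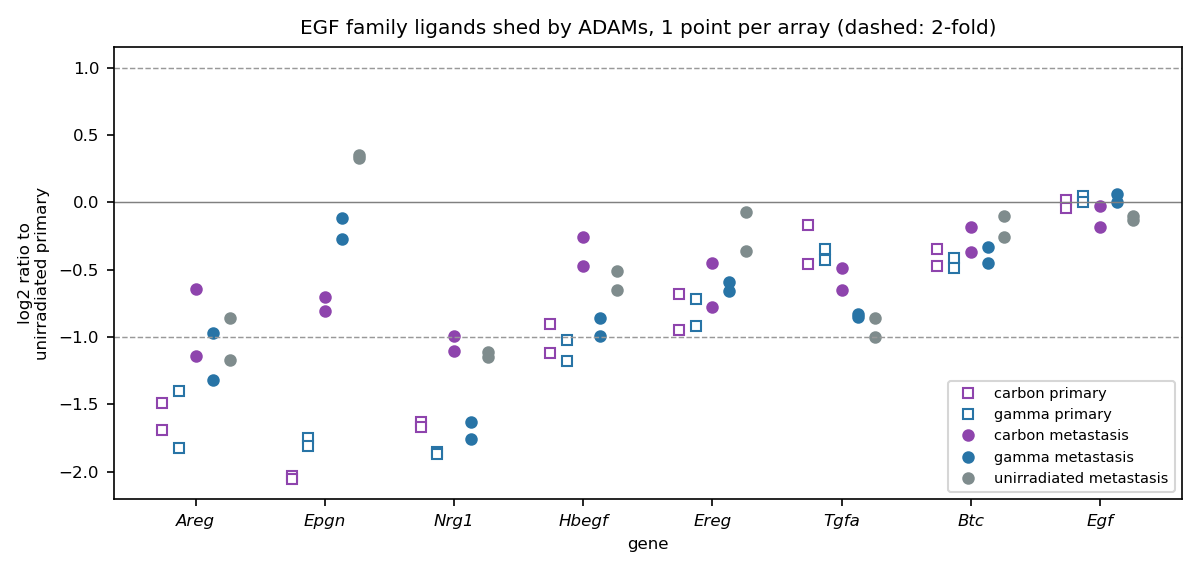
Log2 ratio to the unirradiated primary of the 8 EGF-family ligands (horizontal axis), 2 points per RNA for the 2 arrays, open squares for irradiated primaries and filled circles for metastases. Areg, Epgn and Nrg1 lie below the lower 2-fold line in both irradiated primaries, and Epgn is above 0 in the unirradiated metastasis.

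Of 10 other protease inhibitors 5 were measured in the primaries, and Serping1, the C1 inhibitor, was called in both, at 2.77 ± 0.12 after carbon ions and 1.76 ± 0.14 after gamma rays. Of all genes 3.9% were called higher after carbon ions and 2.23% after gamma rays. In the unirradiated metastasis 3 of 6 were called higher, Spock2 (3.60 ± 0.10), a matrix proteoglycan, Serping1 (2.02 ± 0.10) and Reck (1.96 ± 0.20), a membrane-anchored MMP inhibitor, and Thbs2, a thrombospondin that binds Mmp2 for uptake, was lower (-1.51 ± 0.06). Of all genes 10.4% were called higher in that metastasis and 1.69% lower. Among 7 measured genes of plasminogen activation, a cascade that feeds MMP activation, Serpinb2 alone was called. This inhibitor of plasminogen activators was at 3.32 ± 0.10, 2.14 ± 0.04 and 2.05 ± 0.07 in the unirradiated, gamma and carbon metastases and at -1.30 ± 0.13 in the carbon primary. Of all genes 8.82% were called higher in the gamma metastasis, 8.21% higher in the carbon metastasis and 1.07% lower in the carbon primary. Of 11 activators and partners of MMPs 1 was called higher in the unirradiated metastasis, near the 10.4% of all genes. It was Lcn2, which binds Mmp9 and is also in the neutrophil list. Of 7 sheddase cofactors measured there 2 were called higher, Tspan15 (2.05 ± 0.06) and Tspan5 (1.81 ± 0.33), tetraspanins that bind Adam10. Of 13 related metalloproteinases measured there 1 was called higher, Mme, neprilysin (1.29 ± 0.01), again against 10.4% of all genes.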

How the data were processed

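Expression was measured on 12 two-colour Agilent arrays that hybridised 6 RNAs in 6 dye-swapped pairs. Per the labels' protocols, RNA was purified with RNeasy Micro columns from microdissected cells and amplified linearly. The deposited scanner files, per the file headers from Agilent Feature Extraction 9.1.3.1, hold mean and background intensity per spot and a log10 ratio of Cy5 over Cy3. The authors' value table, log10 as well, equals that ratio within 0.005 (column medians 0). The mouse genome build is not given in the sources used here.

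Mean intensities were background-corrected with normexp (offset 50) and normalised within arrays by loess with control spots at weight 0 (limma 3.58.1, R 4.3.3). Outlier spots were left out, spots of a probe averaged, the brightest probe taken per gene and log2 ratios turned so that the first-named RNA is on top. Signals are per channel after Aquantile scaling. Gene names were updated through RefSeq. A bound sets a dim RNA at the lowest well-above-background signal or its own, whichever was higher. The procedure was run on a simulated dye swap in which only bright probes were changed, so members near background were not covered. With 1 RNA per group, differences were judged by size (2-fold in both dye arrangements) and no test was run. The number of arrays limits the precision.

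The named genes were those called anywhere, the 4 Timp genes, and a list of well-studied MMPs, sheddases and aggrecanases, 31 in all. The members, lists and rules were chosen with earlier results of these data known. Alternatives tried were 11: offset 0, Agilent's processed log ratio, the authors' table, median centring, scaling between arrays, no filter on dim probes, both RNAs above background, the mean of all probes, each dye arrangement alone, and a 1.5-fold rule.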

Additional observations from a re-analysis of the deposited data

Results flagged for a closer look

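Timp3 differed in opposite directions in primaries and in metastases after irradiation of the leg tumour. Only the difference in the carbon primary was called, and the others were not 2-fold with both dye arrangements. In both primary comparisons the array with the irradiated RNA in Cy3 was the higher. In primaries it was higher after gamma rays by 0.92 (log2, arrays 0.58 and 1.26) and after carbon ions by 1.80 (arrays 1.45 and 2.15). Relative to the unirradiated metastasis it was lower in the gamma metastasis, at -0.73 (arrays -0.75 and -0.71), and in the carbon metastasis, at -0.64 (arrays -0.81 and -0.46). The effect in metastases minus that in primaries was -1.65 for gamma rays and -2.44 for carbon ions. The difference was not tested, since each group is 1 RNA.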

How the results depend on the processing

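No called value changed its direction. Of the 47 calls (a gene in a comparison), 47 were kept with normexp offset 0, 46 with Agilent's processed ratios and with the authors' table, which holds the same ratios, 41 with scaling between arrays, 40 with the mean of all probes and 31 with median centring. No filter on dim probes, either dye arrangement alone and both RNAs above background cannot end a call by construction. With both RNAs required above background, 41 of the 47 had a value. The 16 calls lost with median centring include Timp1, Timp2, Mmp3 and Mmp11 in the primaries; the cause was not tested.

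Counts of members called moved by over 1.5 times as follows. In the gamma primary the count was 1, and it was 0 with median centring, 2 with scaling, 3 with Cy5 arrays alone, 2 with Cy3 arrays alone and 3 at 1.5-fold. In the carbon primary it was 6, and 2 with median centring. Carbon against gamma primary had 1 call, 0 with median centring, 2 with offset 0, with Agilent's ratios, with the authors' table, with scaling and with Cy3 arrays alone, and 4 at 1.5-fold. The unirradiated metastasis had 12, 19 with Agilent's ratios and with the table, and 20 at 1.5-fold. The gamma metastasis had 10, 16 with Agilent's ratios and with the table, and 6 with median centring. Gamma against unirradiated metastasis had 3, 6 with Agilent's ratios and with the table, 5 with Cy5 arrays alone and 11 at 1.5-fold. Carbon against unirradiated metastasis had 3, 6 with Agilent's ratios and with the table, and 9 at 1.5-fold. Carbon against gamma metastasis had 1, 2 with offset 0 and 2 at 1.5-fold.

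The median of all genes in the unirradiated metastasis was -0.11 with Agilent's ratios against 0.05, and in the carbon metastasis -0.11 with median centring against 0.06. Over all genes, 253 of 544 calls between the gamma and unirradiated metastases were higher with median centring, against 320 of 563. No paired analysis was possible because each group is 1 RNA. Ratios of members near background (Mmp8, Adamts15, Adamts16) are limited by the dim RNA.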

Other observations

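Among 10 genes of AP-1 and ETS factors, all measured, Fosl1, an AP-1 subunit, was called lower in both irradiated primaries, at -1.22 ± 0.11 after carbon ions and -1.34 ± 0.07 after gamma rays (SD, n = 2 arrays). Of all genes 1.07% were called lower after carbon ions and 1.25% after gamma rays. Fos was higher in the carbon metastasis than in the unirradiated metastasis (1.23 ± 0.07) and than in the gamma metastasis (1.23 ± 0.05), where Fosb was higher too (1.15 ± 0.02). Of all genes 1.85% were called higher in the carbon than in the unirradiated metastasis and 0.239% higher than in the gamma metastasis. Etv4, an ETS factor, was lower in the gamma metastasis than in the unirradiated primary (-1.16 ± 0.14), where 1.1% of all genes were called lower.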
